A study of Rattus norvegicus with 8 samples.

Results

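The miR-23, miR-24 and miR-27 family comprised 11 of the 758 rat miRNAs on the array, chosen by name alone: every miRNA called miR-23a, miR-23b, miR-24, miR-27a or miR-27b, with both strands of each hairpin. They were compared between the prostatic urethra of 4 sham rats and 4 TULP rats, with 1 array per rat. All were male Sprague Dawley (SD) rats aged 10 to 12 months, sampled 5 days after surgery. The TULP rats had had the urothelium of their prostatic urethra vaporized with a thulium laser, which simulates transurethral laser prostatectomy, and gave the wound tissue. The sham rats had only an incision of the abdomen and no laser, and gave the matching piece of urethra. In the TULP rats the bladder was also opened, and a small cystoscope was passed through it into the urethra. The laser and these steps cannot be told apart here. Groups were read from the sample titles. The descriptions of the TULP samples also mention sham surgery, so the groups rest on the titles. The samples were pieces of mixed tissue, in which fewer cells of a type and less RNA per cell cannot be told apart.

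MicroRNAs are short RNAs cut from a hairpin precursor. Usually 1 strand of the hairpin is loaded into Argonaute and kept, and the other is degraded. The loaded strand finds its target messenger RNAs mainly through the seed, bases 2 to 8 from its 5′ end. miR-23, miR-27 and miR-24 are made together from a single primary transcript, and mammals carry a pair of such clusters, called the a cluster and the b cluster. The family is best known from endothelial cells and vessel growth, from muscle and fat cell differentiation, and from immune cells. miR-27 is known to hold back PPARγ, a regulator of fat cell differentiation, and Sprouty proteins, which dampen growth factor signalling, are known targets of miR-23 and miR-27 in endothelial cells.

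The 5 strands from the 3′ arm (3p) that gave a signal are shown first, because they carry every comparison below. The sequences are from RefSeq (GRCr8), which held 10 of the 11 members, and capitals mark the seed.
miR-23a-3p: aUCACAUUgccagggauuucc
miR-23b-3p: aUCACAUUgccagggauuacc
miR-27a-3p: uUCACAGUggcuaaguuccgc
miR-27b-3p: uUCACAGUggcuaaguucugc
miR-24-3p: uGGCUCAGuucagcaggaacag
The a and b forms of miR-23-3p shared the seed UCACAUU and differed at 1 base of 21, U19A from miR-23a to miR-23b, with positions counted from the 5′ end. The a and b forms of miR-27-3p shared the seed UCACAGU and differed at 1 base of 21, C19U from miR-27a to miR-27b. The miR-23 and miR-27 seeds themselves differed at 1 base, U7G. The miR-24-3p seed GGCUCAG was held by no other entry among the 693 mature miRNAs in the table, and the miR-23 and miR-27 seeds each by 2 entries, the a and b forms.

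On GRCr8 the b cluster (Mir23b, Mir27b and Mir24-1, in that order on the minus strand) spanned 814 bases at chr17:1818669-1819482. It lay within the limits of Aopep, which encodes aminopeptidase O (chr17:1817001-2133008), and 4 of its bases overlapped the limits of Fancc (chr17:1686374-1818672). The a cluster (Mir23a, Mir27a and Mir24-2, likewise on the minus strand) spanned 389 bases at chr19:40859455-40859843. No other gene in the table overlapped it, and the nearest, Zswim4, began or ended 1713 bases away. Whether the hairpins lie in introns or exons was not analysed here. The pair of miR-24 hairpins is printed because both release the identical miR-24-3p, in capitals.
Mir24-1 (b cluster): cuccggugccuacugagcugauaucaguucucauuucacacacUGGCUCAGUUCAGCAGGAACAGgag
Mir24-2 (a cluster): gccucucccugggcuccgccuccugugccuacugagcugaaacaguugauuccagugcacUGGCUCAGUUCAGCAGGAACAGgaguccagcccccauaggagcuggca
The miR-24-3p signal is therefore a sum over both clusters that the array cannot divide. The strands of the 5′ arm (5p) do differ between these hairpins, at 5 of 22 bases.

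The 3p strands were measured on every array and the 5p strands on none. The 5 members from the 3′ arm, miR-23a-3p, miR-23b-3p, miR-24-3p, miR-27a-3p and miR-27b-3p, were detected on 8 of 8 arrays. All 640 of their spots over the 8 arrays were well above background and 0 were saturated. The 6 members from the 5′ arm, miR-23a-5p, miR-23b-5p, miR-24-1-5p, miR-24-2-5p, miR-27a-5p and miR-27b-5p, were detected on 0 of 8 arrays, so no test was made for them. Their 20 probes filled 768 spots over the 8 arrays, of which 0 were well above background. The mean background-subtracted spot signal of a 5p probe lay between -5.69 and 2.36, and its total signal reached at most 1.08 times its own error, where detection needed more than 3 times. Negative control spots averaged 1.39 to 2.22 on 7 arrays and 6.56 on sham replicate 1, where a single control spot read 885. The 5p strands thus sat at the level of spots without a matching miRNA in both groups, and a difference between the groups was not detectable there.

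Each 3p member was read by 2 probes, 16 to 18 bases long, that pair with its 3′ end and leave at least the first 3 bases unpaired. The shorter probes of the a and b forms are shown, and capitals mark the base at which the a and b probes differ. The longer probes differ at the same base.
miR-23a-3p probe: ggAaatccctggcaatg
miR-23b-3p probe: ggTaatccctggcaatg
miR-27a-3p probe: gcGgaacttagccact
miR-27b-3p probe: gcAgaacttagccactg
Counted from the 5′ end of the probe, the change was A3T for miR-23 and G3A for miR-27, 1 base in each case. How much of an a form binds the b probe was not tested. The 2 probes of a member agreed closely: their TULP minus sham differences in log2 signal before normalization were 0.0056 to 0.035 apart. For miR-23a-3p these probe differences were -0.59 and -0.59, for miR-23b-3p -0.83 and -0.80, for miR-24-3p -0.50 and -0.49, for miR-27a-3p -0.16 and -0.20, and for miR-27b-3p -0.41 and -0.45. Repeat spots varied little, with a median coefficient of variation of 1.24% to 3.91% over the 10 probes.

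As scanned, the signal of every 3p member averaged lower in the TULP group, but the summed signal of all miRNAs was also lower there. The signal is a sum of probe signals in the scanner's linear units, before any scaling between arrays. Summed over detected miRNAs it was 21075 to 37357 in sham against 16787 to 19464 in TULP, and 136 to 156 miRNAs were detected per array. The labelling spike-ins, synthetic RNAs added before labelling, were not lower in TULP: their signal was 263 to 413 in sham against 347 to 397 in TULP. How arrays are brought to a common scale therefore decides the sign of the members' differences, and 2 scales are given. The first is quantile normalization, which the study's methods name. The second scales each array to its labelling spike-ins. Which of them fits these samples was not tested.

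In the a cluster, rno-miR-23a-3p (rno for Rattus norvegicus) read 326, 385, 448 and 584 on sham replicates 1 to 4 and 354, 286, 264 and 239 on TULP replicates 1 to 4, before normalization. The groups overlapped through TULP replicate 1. rno-miR-27a-3p, which follows miR-23a on the transcript, read, in the same order of replicates, 149, 217, 259 and 288 in sham against 182, 234, 181 and 184 in TULP. Its TULP signals lay inside the range of the sham signals, unlike those of the other members.

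In the b cluster, rno-miR-23b-3p read 725, 894, 919 and 1238 in sham against 757, 504, 482 and 423 in TULP. TULP replicate 1 was above the lowest sham array, and the other 3 TULP arrays were below all of them. rno-miR-27b-3p read 139, 190, 207 and 239 in sham against 182, 144, 121 and 122 in TULP, and TULP replicate 1 again stood highest of its group. rno-miR-24-3p, the sum over both clusters, read 329, 458, 452 and 563 in sham against 330, 340, 308 and 284 in TULP. Sham replicate 1 lay among the TULP arrays and the other 3 sham arrays above them.

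**Figure D1:**
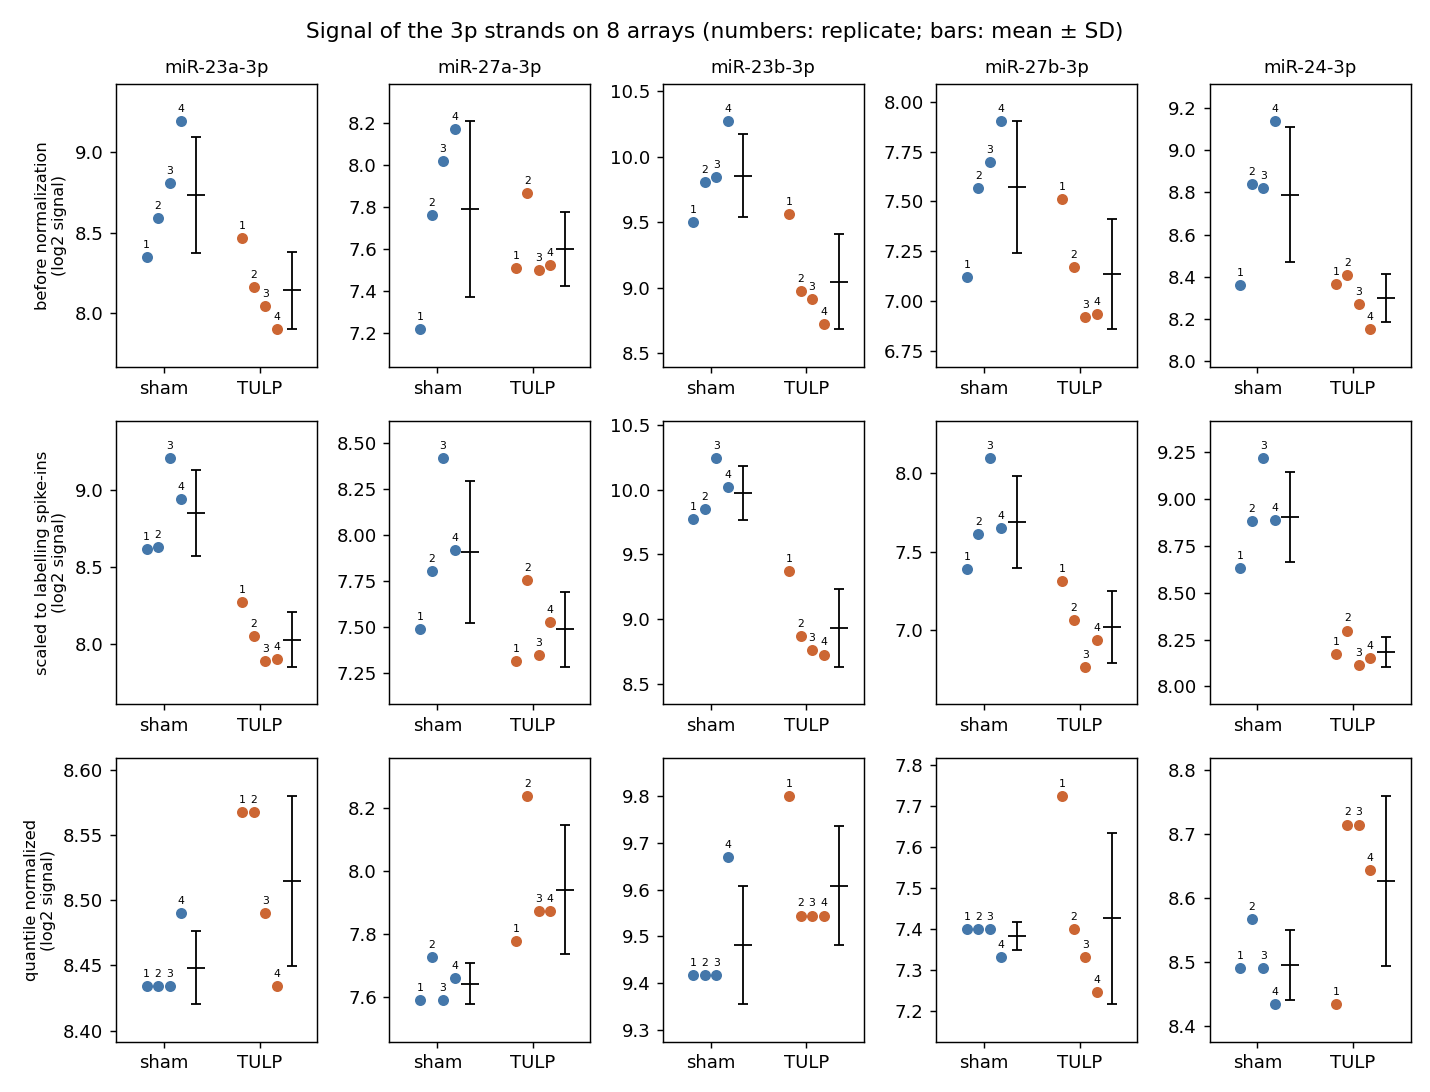
Log2 signal of the 5 3p members (columns) on each array, before normalization (top), scaled to the labelling spike-ins (middle) and quantile normalized (bottom), with the replicate number above each point and the mean ± SD (n = 4) at its right. The TULP points lie mostly below the sham points in the upper and middle rows, and the quantile normalized values in the bottom row share a few steps, with TULP means of 0.043 to 0.30 above the sham means.

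After quantile normalization 0 of the 5 members tested passed an adjusted p of 0.05 (limma, Benjamini-Hochberg over the 151 miRNAs detected on at least 4 arrays). Among all 151, 25 were lower in TULP (16.6%) and 21 were higher (13.9%), 46 in either direction (30.5%), and 14 passed while also differing over 2-fold (9.27%). The members' differences ran from 0.043 to 0.30 on the log2 scale with a median of 0.13, against a range of -2.11 to 2.95 and a median of -0.023 over all tested. By unadjusted p, 1 of the 5 members (miR-27a-3p) was under 0.05, beside 65 of the 151. With the methods' t-test after the same adjustment no member passed either.

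miR-27a-3p had the largest normalized difference of the 5, from 7.64 ± 0.07 (SD, n = 4) in sham to 7.94 ± 0.20 (SD, n = 4) in TULP on the log2 scale. The difference was 0.30 (SE 0.12, 95% interval 0.02 to 0.58, adjusted p = 0.0905 by limma). All 4 TULP arrays exceeded the sham mean, and the groups did not overlap, as for 44 of all 151 tested (29.1%). Within the slide row with 1 sham and 3 TULP arrays the difference was 0.30, and within the other row, with 3 sham arrays and 1 TULP array, it was 0.24. It failed the adjusted threshold in 23 of 23 alternative settings.

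The other members of both clusters moved less on this scale. miR-24-3p went from 8.50 ± 0.05 to 8.63 ± 0.13 (SD, n = 4 each), a difference of 0.13 (SE 0.09, 95% interval -0.09 to 0.35, adjusted p = 0.375 by limma). miR-23b-3p went from 9.48 ± 0.13 to 9.61 ± 0.13 (SD, n = 4 each), a difference of 0.13 (SE 0.11, interval -0.12 to 0.38, adjusted p = 0.457 by limma). miR-23a-3p went from 8.45 ± 0.03 to 8.51 ± 0.07 (SD, n = 4 each), a difference of 0.067 (SE 0.08, interval -0.11 to 0.24, adjusted p = 0.597 by limma). miR-27b-3p went from 7.38 ± 0.03 to 7.43 ± 0.21 (SD, n = 4 each), a difference of 0.043 (SE 0.12, interval -0.23 to 0.32, adjusted p = 0.879 by limma). Without TULP replicate 1 the miR-27b-3p difference was -0.061, so its sign rested on that array.

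Part of this closeness is built into the scale. Quantile normalization gives every array the same sorted values, so that a miRNA can take only the value that belongs to its rank. miR-23a-3p held rank 17 of the 758 on sham replicates 1, 2 and 3 and took the value 8.43 on each, although its signal before normalization was 326, 385 and 448. miR-23b-3p held rank 10 on the same 3 arrays and rank 9 on TULP replicates 2, 3 and 4. The SD of 0.03 for miR-23a-3p in sham thus describes the spread of its ranks, against 0.35 for the log2 signal of its shorter probe before normalization.

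**Figure D2:**
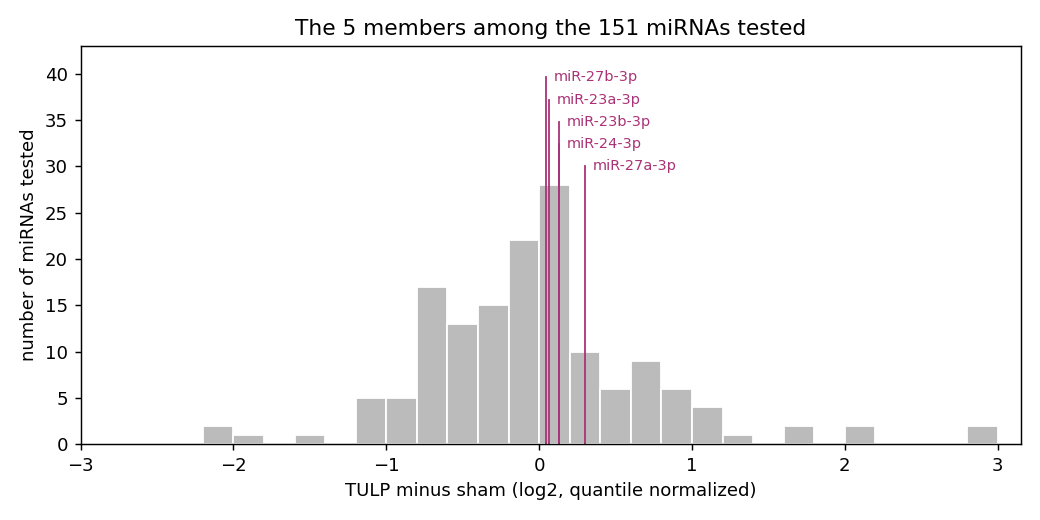
Histogram of the quantile normalized TULP minus sham difference (log2) of the 151 miRNAs tested, in bins of 0.2, with the 5 members as vertical lines whose heights only space the labels. All 5 lie between 0.043 and 0.30, near the median of -0.023, within a range of -2.11 to 2.95.

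Scaled to the labelling spike-ins, 4 of the 5 members were lower in TULP, a share to be read against 82 of all 151 miRNAs (54.3%), so that a member's fall was not set apart from that of the other miRNAs. The median over all tested was itself -0.78 on this scale, and the groups did not overlap for 4 members and for 79 of all tested (52.3%). miR-23b-3p read 874, 922, 1210 and 1040 in scaled sham against 661, 466, 433 and 423 in TULP, with no overlap. It was 2.06-fold lower (log2 difference -1.04, 95% interval -1.51 to -0.58, adjusted p = 0.00239 by limma). miR-23a-3p read 393, 397, 590 and 491 in sham against 309, 265, 237 and 239 in TULP, again with no overlap.

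The fall of miR-23a-3p on the spike-in scale was 1.77-fold (-0.82, interval -1.27 to -0.38, adjusted p = 0.00614 by limma). miR-24-3p was 1.65-fold lower (-0.72, interval -1.12 to -0.32, adjusted p = 0.00703 by limma), and miR-27b-3p was 1.59-fold lower (-0.67, interval -1.14 to -0.20, adjusted p = 0.0202 by limma), both without overlap between groups. The miR-27b-3p call was lost with slide row as a block (adjusted p = 0.0558 by limma), without TULP replicate 3 (adjusted p = 0.0651 by limma) and without TULP replicate 4 (adjusted p = 0.0535 by limma). miR-27a-3p read 180, 224, 342 and 242 in scaled sham against 159, 216, 163 and 184 in TULP. Its difference was -0.42 (interval -0.93 to 0.09, adjusted p = 0.139 by limma), and its groups overlapped.

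miR-27a-3p had the highest difference of the 5 on both scales. Relative to the median of all tested miRNAs on the spike-in scale, miR-27a-3p was at 0.36, miR-27b-3p at 0.12, miR-24-3p at 0.064, miR-23a-3p at -0.036 and miR-23b-3p at -0.26. Within the slide rows the spike-in scaled differences kept their sign: they were -1.02 and -1.23 for miR-23b-3p, -0.87 and -0.92 for miR-23a-3p, -0.69 and -0.76 for miR-24-3p, -0.60 and -0.76 for miR-27b-3p, and -0.45 and -0.38 for miR-27a-3p. Without any scaling only miR-23b-3p passed, lower in TULP (-0.81, adjusted p = 0.0313 by limma), as did 48 of all 151 (31.8%).

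**Figure D3:**
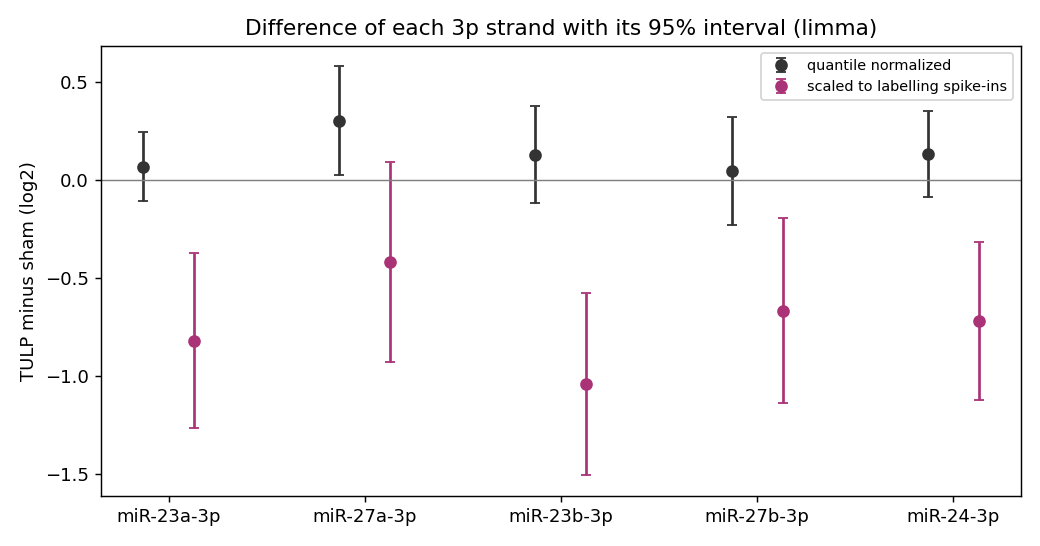
TULP minus sham difference (log2) of each 3p member with its 95% interval from limma, after quantile normalization (dark) and after scaling to the labelling spike-ins (purple), with 4 arrays per group. All 5 differences are above 0 on the first scale and below 0 on the second, and miR-27a-3p is the highest on both.

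A ratio of members on the same array needs no scaling between arrays, since an array-wide factor cancels in it. Pairs of members were therefore compared array by array, the a form against the b form of each miRNA and miR-27 against miR-23 within each cluster, 4 pairs in all. The level of such a ratio depends on the probes, and only its change between groups is read. With 4 arrays against 4 the smallest two-sided exact permutation p is 0.0286.

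Within the b cluster, the ratio of miR-27b-3p to miR-23b-3p was higher on every TULP array than on any sham array before normalization, a difference that did not pass after adjustment. The signal ratio was 0.192, 0.212, 0.226 and 0.193 on sham replicates 1 to 4 and 0.241, 0.287, 0.251 and 0.289 on TULP replicates 1 to 4. The groups did not overlap, and the ratio was 1.30-fold higher in TULP (log2 difference 0.37, two-sided exact permutation p = 0.0286, which is the lowest this design allows, and 0.114 after adjustment over the 4 pairs). It was higher in TULP within both slide rows, by 0.42 and 0.46. After quantile normalization the same log2 difference was -0.085 (exact permutation p = 0.314, adjusted 0.419), so its direction changed with that step. Quantile normalization sets values by rank and not by an array-wide factor, which would cancel in the ratio. It gave sham replicates 1, 2 and 3 the same log2 value of -2.02 for this pair, although their ratios before it differed.

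Within the a cluster, the ratio of miR-27a-3p to miR-23a-3p averaged higher in TULP, and the difference did not pass the test. The ratio before normalization was 0.457, 0.564, 0.579 and 0.493 in sham against 0.516, 0.816, 0.687 and 0.771 in TULP. TULP replicate 1 fell among the sham arrays and the other 3 above them. The log2 difference was 0.40 before normalization (exact permutation p = 0.0857, adjusted 0.114) and 0.23 after it (p = 0.0571 by the same exact permutation test, adjusted 0.229). It was above 0 in 22 of 22 alternative settings, but many of these could not change it. Floors, detection filters and a replicate block left it unchanged, and settings that only scale whole arrays gave the same value as no normalization. Over the settings it ran from 0.063 to 0.45. The lowest was from the stored totals (exact permutation p = 0.657).

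Between the clusters, the ratios of the b forms to their a forms averaged lower in TULP before normalization, and neither difference passed the test. The ratio of miR-23b-3p to miR-23a-3p was 2.22, 2.32, 2.05 and 2.12 in sham against 2.14, 1.76, 1.83 and 1.77 in TULP, with TULP replicate 1 again among the sham values. Its log2 difference was -0.22 (exact permutation p = 0.0857, adjusted 0.114), but 0.061 after quantile normalization (exact permutation p = 0.457, adjusted 0.457). The ratio of miR-27b-3p to miR-27a-3p was 0.934, 0.875, 0.799 and 0.830 in sham against 0.999, 0.617, 0.668 and 0.664 in TULP. TULP replicate 1 was the highest of all 8 arrays and the other 3 TULP arrays were the lowest. Its log2 difference was -0.25 before normalization (exact permutation p = 0.171, adjusted 0.171) and -0.26 after it (exact permutation p = 0.171, adjusted 0.343), so no pair passed the adjusted threshold.

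Before normalization TULP replicate 1 lay among the sham arrays in 2 of the 4 pairs and above all of them, opposite to the other TULP arrays, for miR-27b-3p over miR-27a-3p, and it lay with its group for miR-27b-3p over miR-23b-3p. Without it the groups of all 4 pairs were apart. The log2 differences were then 0.42 for miR-27b-3p over miR-23b-3p, 0.54 for miR-27a-3p over miR-23a-3p, -0.29 for miR-23b-3p over miR-23a-3p and -0.40 for miR-27b-3p over miR-27a-3p. This array was left out after its values were seen, so no p is read from the rest, and these values are a description of the other 7 arrays.

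**Figure D4:**
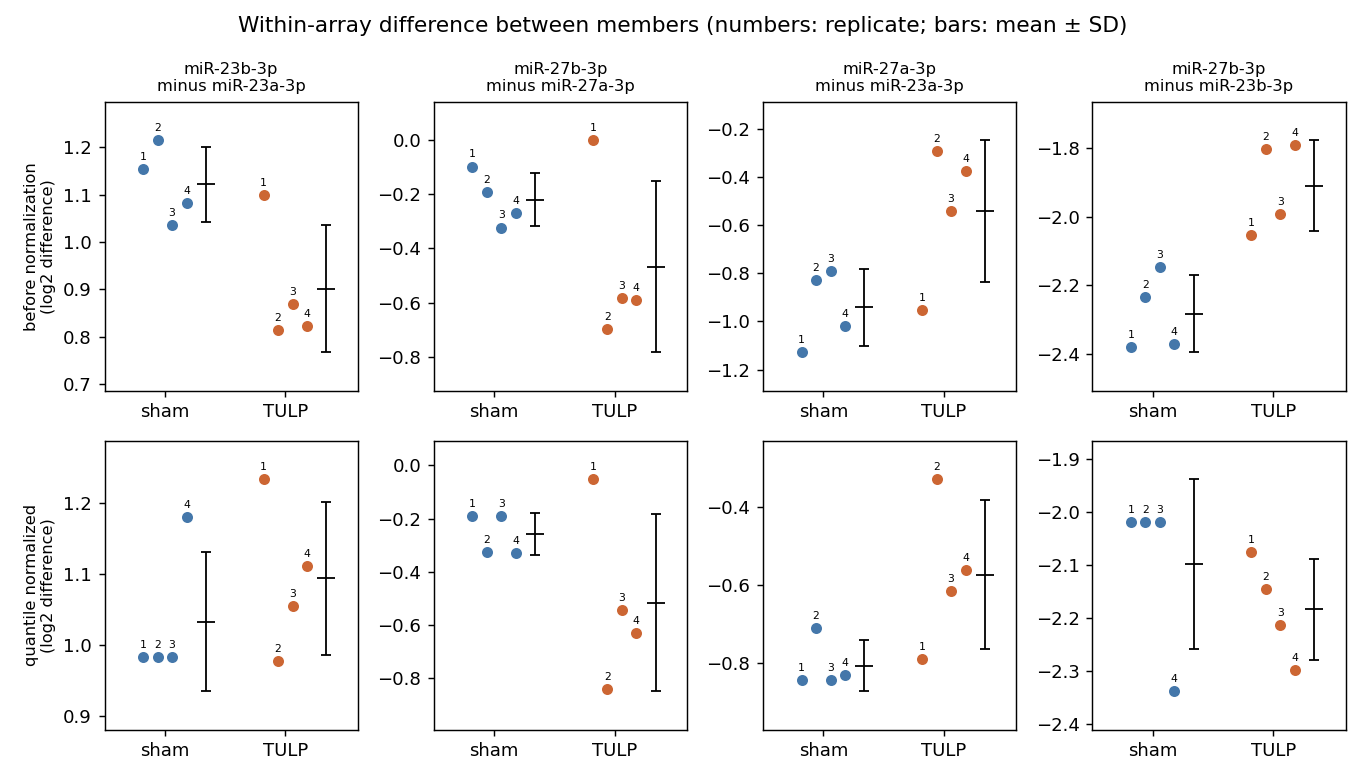
Log2 difference between 2 members on the same array for the 4 pairs (columns), before normalization (top) and after quantile normalization (bottom), with replicate numbers above the points and the mean ± SD (n = 4) at their right. Before normalization TULP replicate 1 lies nearer to the sham arrays than the other TULP arrays do, and the shift of miR-27b-3p minus miR-23b-3p changes from 0.37 to -0.085 with normalization.

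Marker miRNAs of other cell types also moved between the groups, and some stood high on TULP replicate 1. The lists of marker miRNAs were chosen with earlier results of these data known. Of the 8 leukocyte miRNAs tested 4 rose in TULP and 0 fell, beside 13.9% higher over all tested, with a median log2 difference of 1.32 against -0.023 over all tested: miR-146b-5p by 2.90, miR-223-3p by 2.10, miR-142-3p by 2.01 and miR-21-5p by 1.76. The summed normalized signal of the 9 listed was 806 to 1219 in sham against 3035 to 3130 in TULP, and the listed miR-142-5p was detected on no array. Most of these sums was miR-21-5p, which is also in the fibrosis-associated list below. Its mean log2 signal was 9.72 in sham and 11.48 in TULP, against 3.26 and 6.17 for miR-146b-5p. The sums therefore mainly follow miR-21-5p and do not measure the leukocyte list as a whole. The listed miR-150-5p, known from lymphocytes, had a difference of -0.59 that did not pass (adjusted p = 0.0737 by limma), and its groups did not overlap. Of the 5 striated muscle miRNAs tested 4 fell and 0 rose, beside 16.6% lower over all tested, with a median of -0.74 and sums of 4090 to 5741 in sham and 2666 to 4690 in TULP. The largest fall, of miR-133a-3p at -0.96, was under 2-fold, and miR-486 passed narrowly (adjusted p = 0.0498 by limma). miR-486 is counted in this list but is also known as an erythroid miRNA. The remaining member, miR-206-3p, had a difference of 0.25 in the other direction that did not pass (adjusted p = 0.795 by limma).

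Of the 7 epithelial miRNAs tested 0 passed, with a median of -0.68. Their sum was 488 to 675 on the sham arrays, 391 to 469 on TULP replicates 2, 3 and 4, and 938 on TULP replicate 1. The smooth muscle list had 0 of 2 passing, a median of -0.28 and a sum of 1315 on TULP replicate 1, against 634 to 928 on the other 7 arrays. The erythroid list had 0 of 1 passing, a median of -0.66 and sums of 14.7 to 17.8 in sham and 0.3 to 26.4 in TULP. The TULP array with the highest miR-23b-3p and miR-27b-3p thus also had the highest epithelial and smooth muscle sums, and the lowest striated muscle sum (2666). Single miRNAs dominated these epithelial and smooth muscle sums, which do not measure the lists as a whole. The mean log2 signal of miR-143-3p was 9.61 in sham and 9.68 in TULP, against 4.76 and 4.13 for miR-145-5p. That of miR-200b-3p was 8.36 in both groups, against 6.37 in sham and 5.66 in TULP for miR-200a-3p. The part of these cell types in the members' values was not tested.

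MiRNAs tied to vessel growth, 1 of the processes for which the family is known, and to fibrosis were read from further lists. Of the 9 vessel-associated miRNAs tested 1 rose (miR-221-3p, by 1.69) and 0 fell, with a median of 0.076. Of the 11 fibrosis-associated miRNAs tested 3 rose and 2 fell, with a median of 0.10. Those that rose were miR-21-5p (1.76), miR-214-3p (0.92) and miR-199a-5p (0.60). Those that fell were miR-133a-3p (-0.96) and miR-30a-5p (-0.56). miR-21-5p, which is also in the leukocyte list, was the 1 with a rise of more than 2-fold. The list was not divided by the direction its members take in fibrosis, so its median cannot show whether they moved together. The shares that passed over all 151 tested, 13.9% higher and 16.6% lower, are the background for both lists.

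The miRNAs whose normalized values followed each member most closely over the 8 arrays are given as a description, since all points share the same 8 arrays and their group difference. They were picked as the highest r among all other tested miRNAs, a choice that itself favours high values. For miR-27b-3p they were miR-143-3p, a smooth muscle miRNA (Pearson r = 0.953), and the epithelial miRNAs miR-429 (0.936) and miR-200b-3p (0.922). Without TULP replicate 1 these were 0.885, 0.928 and 0.653. For miR-27a-3p they were miR-223-3p, a miRNA of neutrophils and other myeloid cells (0.854), miR-1949 (0.840) and miR-16-5p (0.823). Without TULP replicate 1 these were 0.862, 0.840 and 0.838. After each group's mean was subtracted, the r over the 8 arrays were lower for miR-27a-3p, at 0.680, 0.599 and 0.631. Those of miR-27b-3p were then 0.953, 0.945 and 0.934.

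For miR-24-3p the closest was miR-155-5p, known from activated immune cells (0.949). It was detected on 1 sham array and 3 TULP arrays only and held the floor value elsewhere. Next for miR-24-3p came miR-290 (0.856) and miR-34a-5p, a target of p53 (0.848). For miR-23b-3p the closest were miR-25-3p (0.898), miR-125a-5p (0.845) and miR-494-3p (0.724), and for miR-23a-3p miR-494-3p (0.859), miR-322-5p (0.762) and miR-199a-5p (0.721). Without TULP replicate 1 the r of miR-23b-3p with miR-494-3p was 0.477. With group means subtracted, the r in the order named were 0.927, 0.937 and 0.814 for miR-24-3p. They were 0.878, 0.828 and 0.615 for miR-23b-3p, and 0.773, 0.604 and 0.485 for miR-23a-3p. The lists of the a and b forms of miR-27 held different miRNAs, those of miR-23a-3p and miR-23b-3p shared miR-494-3p.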

How the data were processed

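RNA of 8 rats was hybridized to 1-colour Agilent rat miRNA arrays, all on 1 slide and in 1 scan. The deposited scanner files hold spot intensity on a linear scale, background subtracted by the authors' Agilent Feature Extraction 10.7.1.1 and not normalized between arrays. A deposited table of quantile normalized log2 values, made by the authors, served as an alternative. From the scanner files, probe totals above 3 times their error were summed per miRNA (0.1 where no probe passed), which gave the detection calls of the files with 0 mismatches. Sums were quantile normalized over 758 rat miRNAs, raised to a floor of 1.94 (0.96 in log2) and converted to log2. The 151 miRNAs detected on at least 4 arrays were fitted with limma 3.58.1 (R 4.3.3, lmFit and eBayes) and adjusted by Benjamini-Hochberg, and the fit was tested on simulated data. For spike-in scaling, each array was divided by the geometric mean signal of labelling spike-ins dmr_285 and dmr_31a. Pairs of members were compared by a two-sided exact permutation test over the 70 labellings of the arrays. The number of arrays limits the precision. Replicates were separate animals per the study's methods, and the sample titles only number the tissues. All members were named whatever their values. Of each list those with an adjusted p under 0.05 and a change over 2-fold were named, at most 4, and others where they limit the reading of the list. The members, lists and tests were chosen with earlier results of these data known, and the repeats of the spike-in scaled values and of pair ratios before normalization were chosen after seeing the data. Alternatives were other signals, scalings, floors and filters, a block, the methods' t-test and leaving out each array.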

Additional observations from a re-analysis of the deposited data

Results flagged for a closer look

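In 9 of the 46 groups of 4 arrays checked, 1 array stood far from the other 3 of its group, where chance gives about 1 in 20 (2.3 of 46). In 6 of these groups the other 3 arrays held equal values, because the miRNAs kept their rank on them and quantile normalization gives equal ranks equal values. Sham replicate 4 was that array for miR-23a-3p (normalized log2 8.49, the others 8.43), miR-23b-3p (9.67, the others 9.42), miR-27b-3p (7.33, the others 7.40), miR-23b-3p minus miR-23a-3p (1.18, the others 0.98) and miR-27b-3p minus miR-23b-3p (-2.34, the others -2.02). TULP replicate 1 was that array for miR-23b-3p after normalization (9.80, the others 9.54) and for miR-27b-3p minus miR-27a-3p before normalization (-0.00092, the others -0.70 to -0.58). TULP replicate 2 stood apart for the log2 signal of miR-27a-3p before normalization (7.87, the others 7.50 to 7.53), and sham replicate 2 for miR-27a-3p minus miR-23a-3p after normalization (-0.71, the others -0.84 to -0.83).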

How the results depend on the processing

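The scale decided the direction of each member. Without normalization the differences were -0.59 for miR-23a-3p, -0.81 for miR-23b-3p, -0.49 for miR-24-3p, -0.19 for miR-27a-3p and -0.44 for miR-27b-3p, and 1 member passed. With the labelling spike-ins they were -0.82, -1.04, -0.72, -0.42 and -0.67 in the same order, 4 members and 87 of all miRNAs passed, against 46 after quantile normalization, and the median of all tested moved from -0.023 to -0.78 (-0.55 without normalization). With the 75th percentile of miRNAs detected on all arrays miR-23a-3p was -0.075 and miR-23b-3p -0.30. Under each of these 3 settings miR-23b-3p minus miR-23a-3p was -0.22 and miR-27b-3p minus miR-23b-3p was 0.37. miR-23a-3p was -0.067 with control features among those normalized and -0.058 in the deposited table. miR-27b-3p was -0.15 from the stored totals, -0.055 from mean spot signals, -0.039 with normexp, -0.014 with control features, -0.012 in the deposited table, and -0.00018 with slide row as a block. The cause of these reversals was not tested. The count over all miRNAs was 28 from the stored totals and 28 with slide row as a block. With 1 array left out it was 28 to 57 (28 without sham replicate 3, 30 without TULP replicate 3), and miR-27b-3p was -0.061 (without TULP replicate 1) to 0.10.

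On the spike-in scale miR-27b-3p missed the threshold with slide row as a block (-0.68), with a replicate block (-0.67, adjusted p = 0.0602 by limma) and with dmr_31a alone (-0.62, adjusted p = 0.0531 by limma), and was -0.77 to -0.53 with 1 array left out. The other 4 members kept their direction and their side of the threshold in all 12 of these settings. Pair differences before normalization, with 1 array left out, were -0.29 to -0.19 for miR-23b-3p minus miR-23a-3p, -0.40 to -0.17 for miR-27b-3p minus miR-27a-3p, 0.32 to 0.54 for miR-27a-3p minus miR-23a-3p and 0.33 to 0.42 for miR-27b-3p minus miR-23b-3p. Over all alternatives miR-27b-3p minus miR-27a-3p was -0.56 to -0.15, below 0 in 22 of 22, but floors, detection filters and a replicate block could not change it. Settings that only scale whole arrays share a value for such a pair. miR-27a-3p itself was above 0 in 21 of 23, all but no normalization and the labelling spike-ins. Same-numbered arrays deviated together in some pairs and not in others (r = 0.13, -0.097, 0.27 and -0.10), so the numbers do not pair the animals. With a replicate block 19 miRNAs were lower and 18 higher, and no member passed. Scaling to the 75th percentile of all miRNAs gave no value, because that percentile lay among undetected miRNAs. The methods' t-test was not applied to pairs.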
